A study of Ovis aries with 6 samples.

Results

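Chemokines, interleukins and their receptors were described in the somatic cells of sheep milk, the leukocytes and shed epithelial cells that are pelleted from it. The members were the genes whose sheep symbol begins with CCL, CXCL, CCR, CXCR or IL and a number, or with CX3C, without CXCL8, and each gene entered by its transcript of highest mean level. There were 86 such genes, from 109 transcripts, among 11285 genes with a symbol and 49705 transcripts in all. The linseed group held 3 libraries and the control group 3, from the same 3 Comisana ewes, which were at day 90 of lactation. For the linseed group, the ewes ate forage and a concentrate with 20% extruded linseed, by dry matter, for 3 weeks. For the control group, they had first eaten grass hay and a commercial concentrate for 3 weeks. Every ewe received linseed second, so diet and time of sampling cannot be told apart. Each library came from the cells of 250 ml of milk of 1 ewe, and levels are RPKM, the reads of a transcript divided by its length and by the size of the library.

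Chemokines are small secreted proteins that draw leukocytes along a gradient through receptors of the CCR and CXCR families. Interleukins are cytokines by which leukocytes and epithelial cells signal to each other, and many of their receptors are assembled from 1 private chain and 1 shared chain, such as the common gamma chain IL2RG, gp130 (IL6ST), IL10RB or IL1RAP. In the udder these genes are best known from mastitis, in which epithelium and macrophages release chemokines and interleukin 1 and neutrophils enter the milk. The roles given below come from human and mouse biology.

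The libraries held 4941935 to 19912996 reads with linseed and 8805705 to 22644050 reads on the control diet, as solved from the RPKM values. Markers of the cell types differed widely among them. The summed level of the 8 measured T and NK cell markers, CD3E and GNLY among them, was 628, 380 and 247 RPKM in linseed sheep 1, 2 and 3, against 13.4, 418 and 965 RPKM in control sheep 1, 2 and 3. Control sheep 1 thus stood far below all other libraries in this sum, and 7 of these 8 markers were highest in control sheep 3. Most of the sum in linseed sheep 1 and 2 was GNLY. GNLY had 543, 313 and 102 RPKM with linseed and 5.03, 246 and 382 RPKM in control. Of the linseed libraries, sheep 3 was highest for CD3E, CD247, CD8B, CD3D, CD4 and LCK, and sheep 1 for GNLY and CD2. The 7 measured macrophage markers summed to 776, 947 and 1380 RPKM with linseed and to 92.1, 557 and 438 RPKM in control. The 6 measured neutrophil markers summed to 2349 to 3184 RPKM with linseed and to 422 to 1018 RPKM in control. Both of these sums were higher in every linseed library than in any control library, and most of the neutrophil sum was S100A8 and S100A9, which macrophages also make. The macrophage sum was carried by CD68, TREM2 and C1QA, while MRC1 was lower with linseed in 3 of 3 sheep and CD14 and MSR1 in 2 of the 3. Over all marker lists limma called 0 genes without the block and 1 with it, the macrophage receptor gene TREM2 (adjusted p = 0.0401). The 6 measured markers of mammary epithelium, the milk proteins CSN2 and CSN3 foremost, summed to 66512, 79357 and 4738 RPKM with linseed and to 266284, 177008 and 17714 RPKM in control, so both libraries of sheep 3 held little of them. The 7 B and plasma cell markers summed to 7.38 to 28.6 RPKM with linseed and to 1.27 to 25.8 RPKM in control. No library reached 1 RPKM for the single measured dendritic cell marker or for the 3 of eosinophils, basophils and mast cells. COL3A1 of fibroblasts and ALAS2 of erythrocytes were at 0 everywhere, and PECAM1 of endothelium, which leukocytes also express, had 3.41 to 83.9 RPKM with linseed and 3.94 to 32 RPKM in control. In these bulk samples, fewer cells of a type and less RNA per cell cannot be told apart.

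Of the 86 genes, 39 reached a mean of 1 RPKM over the 6 libraries and were tested: 16 ligands and 23 receptors. Together the 86 genes made up 861, 965 and 2501 RPKM in linseed sheep 1, 2 and 3, against 183, 1140 and 3486 RPKM in control sheep 1, 2 and 3. The receptors summed to more than the ligands in every library, with 686, 703 and 1859 RPKM under linseed and 98.1, 690 and 2566 RPKM in control. The groups overlapped, and the low sum of control sheep 1 and the high sums of both libraries of sheep 3 set the range. The 4 most abundant genes, IL2RG, CXCR4, IL1RN and IL1B, held 64.4% to 72.4% of the summed level in the linseed libraries and 61% and 72.3% in control sheep 2 and 3, but 25.9% in control sheep 1.

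**Figure D1:**
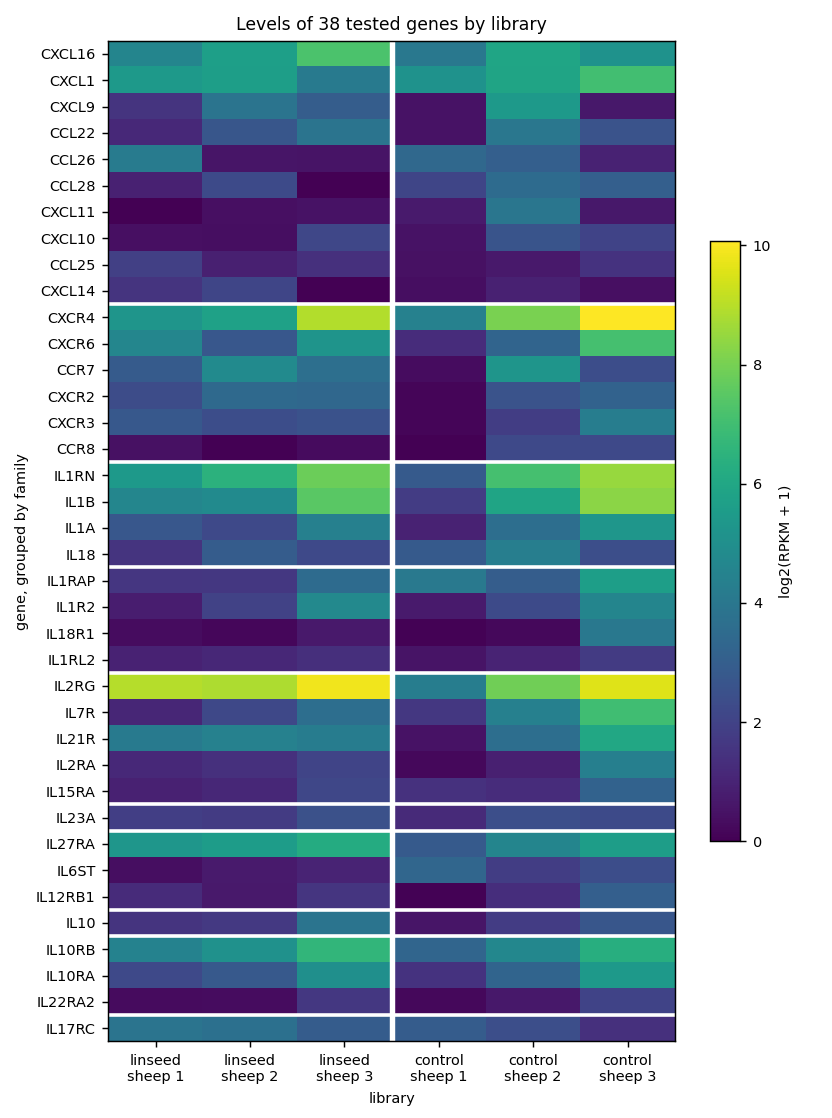
Level of 38 of the 39 tested genes, as log2(RPKM + 1), in the 3 linseed libraries (left) and the 3 control libraries (right), with genes grouped by family between the horizontal white lines. Control sheep 1 is the darkest column, and it is the lowest of the 6 libraries for 26 of the 39 genes (66.7%), beside 33% of all tested transcripts.

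No chemokine, interleukin or receptor gene passed an adjusted p under 0.05 between the diets. In limma over 15891 transcripts, 0 of the 39 were called higher and 0 lower with linseed, beside 0% and 0% of all transcripts. With the sheep as a block limma again called 0 in each direction, beside 1.28% of all transcripts higher and 1.34% lower. The smallest adjusted p was 0.263 (IL6ST) without the block and 0.0543 (IL1RAP) with it. At an unadjusted p under 0.05, 0 of the 39 were higher, beside 8.5% of all transcripts, and 3 (7.69%) were lower, beside 7%: IL6ST, CCL28 and IL1RAP. The genes varied more among the libraries of a group than most transcripts did, with a median SD within groups of 1.33 on the log2(RPKM + 1) scale against 0.74 over all transcripts, and a median SE of the log2 change of 0.81 against 0.63. Their log2 changes ran from -2.02 to 1.97 with a median of 0.05, against a median of -0.12 over all transcripts.

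The ewes were unlike in this median. The median log2 change of the 39 genes was 0.83 in sheep 1, -0.44 in sheep 2 and -0.40 in sheep 3, against 0.02, 0.03 and -0.22 over all transcripts. Without the library of control sheep 1 the median of the 39 fitted changes was -0.81. That library was the lowest of the 3 control libraries for 32 of the 39 genes (82.1%), beside 52.3% of all transcripts. Control sheep 3 was the highest of its group for 25 (64.1%), beside 61.7%, and linseed sheep 3 for 26 (66.7%), beside 61.1%. In 3 of 3 sheep, 5 genes (12.8%) were higher with linseed, beside 23% of all transcripts, and 7 (17.9%) were lower, beside 26.2%. All 5 that were higher were receptors (IL2RG, IL27RA, IL10RB, CXCR2 and IL17RC). The 7 that were lower were 4 receptors (IL6ST, IL1RAP, IL7R and IL15RA) and 3 ligands (CCL28, CXCL11 and IL18). The groups did not overlap for 1 gene with higher levels under linseed, IL17RC (2.56%, beside 13.3% of all transcripts). They also did not overlap for 2 with lower levels, IL6ST and CXCL11 (5.13%, beside 7.83%). Both of these reached the filter of 1 RPKM only through the control group. Their linseed means were 0.655 and 0.255 RPKM, against 5.24 and 5.30 RPKM in control.

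**Figure D2:**
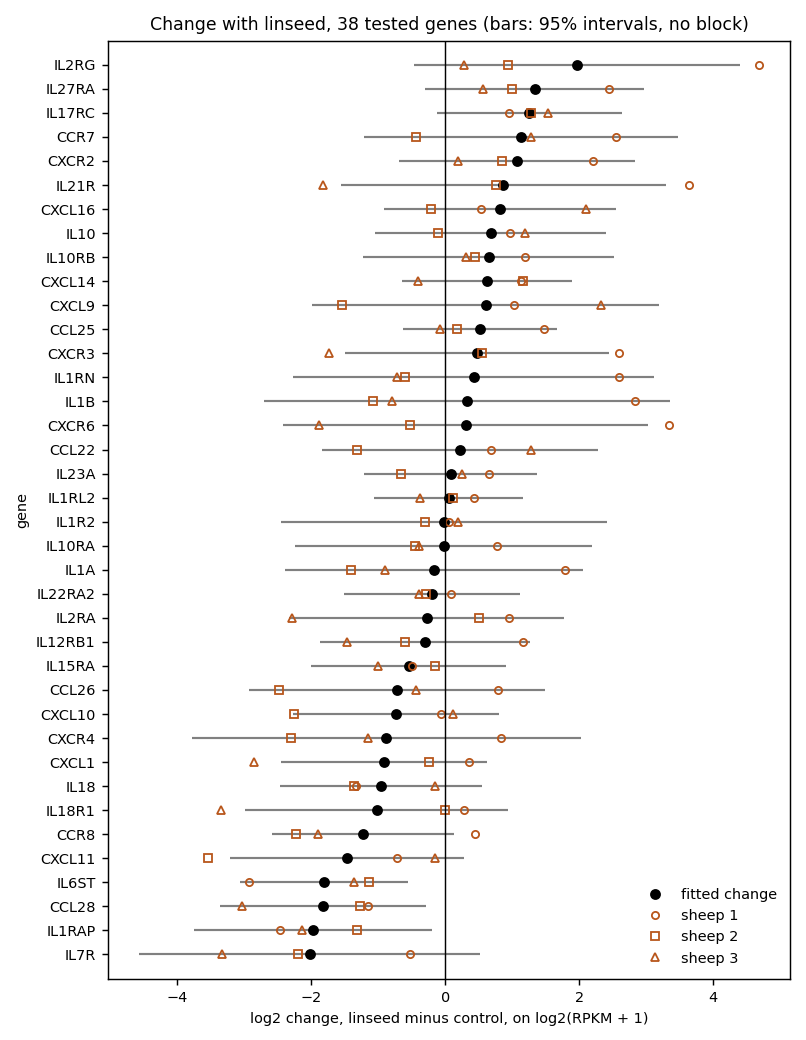
Log2 change with linseed (linseed minus control, on log2(RPKM + 1)) for 38 of the 39 tested genes, with the fitted value in black, its 95% interval without the block as a bar, and the change within each sheep as an open symbol. Sheep 1 (circles) lies to the right of the other sheep for most genes, as its median of 0.83 shows, and the intervals of all but IL6ST, CCL28 and IL1RAP cross 0.

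Receptors of the common gamma chain family serve lymphocytes foremost, and IL2RG is the chain they share. IL2RG had the highest mean level of all 86 genes, with 494, 453 and 928 RPKM in linseed sheep 1, 2 and 3 and 18.2, 237 and 763 RPKM in control sheep 1, 2 and 3. It was higher with linseed in each sheep, but control sheep 3 exceeded 2 of the linseed libraries, so the groups overlapped. Its log2 change was 1.97 ± 1.11 (SE; limma adjusted p = 0.394, and 0.135 with the block), and within sheep it was 4.69, 0.94 and 0.28. It came to 0.48 without control sheep 1.

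IL7R, the receptor of interleukin 7 that T cells keep for their survival, ran the other way. Its levels were 1.14, 3.59 and 11.4 RPKM in linseed sheep 1, 2 and 3, against 2.08, 20.1 and 125 RPKM in control sheep 1, 2 and 3. It was lower with linseed in each ewe, while sheep 3 had the highest level within both groups. In limma the log2 change was -2.02 ± 1.16 (adjusted p = 0.400, and 0.0654 with the block), and it was -0.70 without control sheep 3. In sheep 1 IL7R and the T and NK cell marker sum differed in opposite directions, since that sum was 628 RPKM with linseed and 13.4 RPKM in control. Of that sum, GNLY held 543 and 5.03 RPKM. In sheep 1 CD247 was lower with linseed, as IL7R was (0.407 against 2.40 RPKM), while the other markers of that list were higher. The CD247 levels there rest on 2 reads with linseed and 54 in control. Some of the higher markers rest on few reads too, such as CD3D with 8 and 5 and CD4 with 8 and 12.

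IL21R, the receptor of interleukin 21 on B, T and NK cells, had 16.7, 20.3 and 17.6 RPKM under linseed and 0.413, 11.6 and 64.5 RPKM in control. The linseed libraries lay close together within the wide span of the control libraries, and the log2 change of 0.86 ± 1.10 turned to -0.59 without control sheep 1. IL15RA, which presents interleukin 15 to neighbouring cells, had 0.907, 1.17 and 3.47 RPKM with linseed and 1.70, 1.42 and 7.91 RPKM in control. It was lower with linseed in each sheep, the groups overlapped, and the log2 change was -0.55 ± 0.66 (limma adjusted p = 0.693), or 0.05 without control sheep 3. The IL15RA transcript is 5129 nt long, and with a correction for transcript length the change was -0.11. IL2RA, the high-affinity chain of the interleukin 2 receptor, stood out in control sheep 3 alone: it had 1.22, 1.64 and 3.20 RPKM with linseed and 0.150, 0.857 and 19.5 RPKM in control. The ligands of this family were near 0 throughout. IL2 and IL21 had no read in any library, IL7 had 1 read in linseed sheep 3, and IL15 had at most 0.623 RPKM, in control sheep 2.

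In the gp130 and interleukin 12 family, IL6ST encodes gp130, the signalling chain shared by the receptors of interleukin 6, interleukin 11, interleukin 27 and oncostatin M. IL6ST had 0.295, 0.635 and 1.03 RPKM in linseed sheep 1, 2 and 3, against 8.90, 2.60 and 4.21 RPKM in control sheep 1, 2 and 3. These values rest on 10, 26 and 141 reads with linseed and on 1380, 157 and 306 reads in control. Every linseed library was below every control library, and control sheep 1, the lowest library for most of the other genes, had the highest IL6ST level. The log2 change was -1.81 ± 0.57 (limma adjusted p = 0.263, and 0.0624 with the block), with -2.93, -1.14 and -1.36 within the sheep. The IL6ST transcript is 6851 nt long, and over all transcripts above 4000 nt the median log2 change was -0.49 (-0.43, -0.13 and -0.82 within the sheep). With a correction for transcript length the log2 change of IL6ST was -1.29.

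IL27RA, the private chain that pairs with gp130 in the interleukin 27 receptor, differed in the other direction. It had 38.5, 46.8 and 71.7 RPKM with linseed and 6.30, 23.0 and 48.2 RPKM in control. It was higher with linseed in each sheep, and the groups overlapped only in that control sheep 3 exceeded linseed sheep 1 and 2. Its fitted change was 1.33 ± 0.75 on the log2 scale (limma adjusted p = 0.393, and 0.161 with the block), and it was 0.59 without control sheep 1. The ligand subunit IL27 stayed below 1 RPKM except in control sheep 3, with 0.291, 0.391 and 0.731 RPKM under linseed and 0.0793, 0.286 and 1.36 RPKM in control. IL6 had no read with linseed and 1, 2 and 0 reads in control sheep 1, 2 and 3. IL23A, a subunit of interleukin 23, stayed within a narrow range, with 2.62, 2.34 and 4.65 RPKM with linseed and 1.28, 4.28 and 3.76 RPKM in control.

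**Figure D3:**
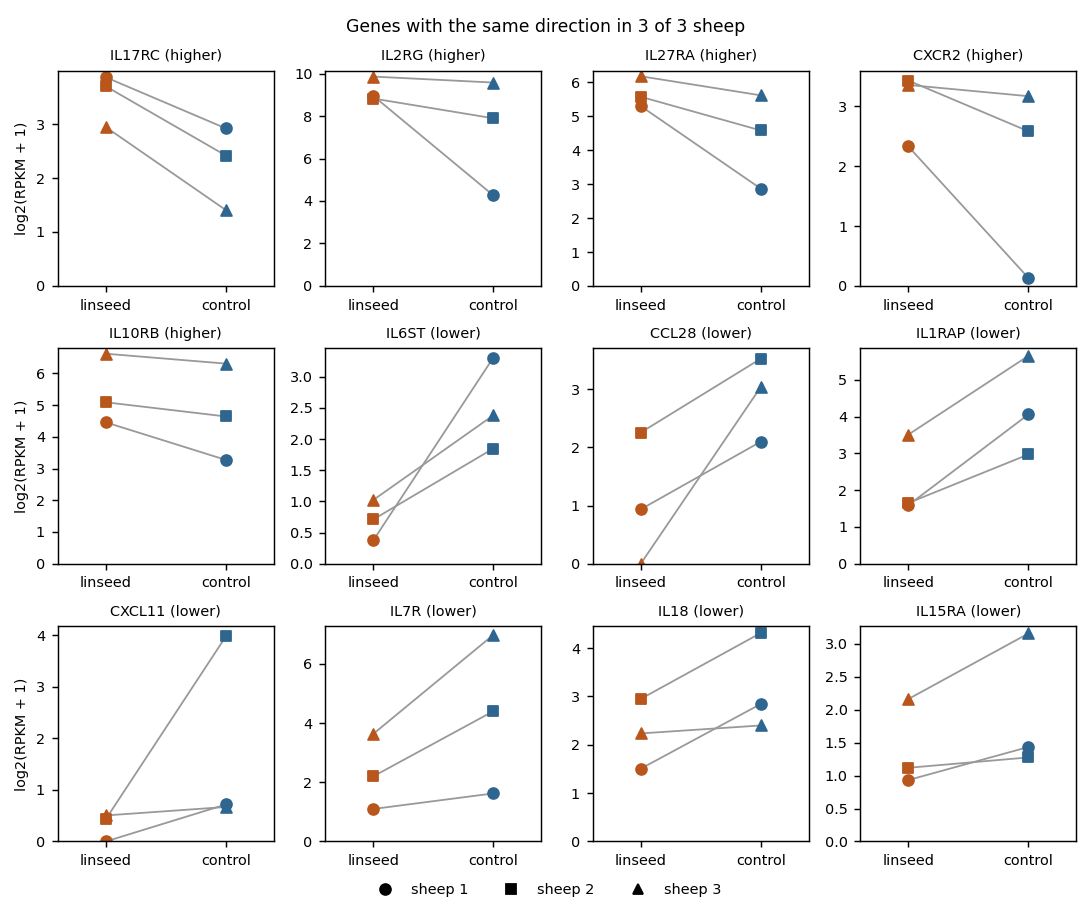
Levels, as log2(RPKM + 1), of the 12 tested genes whose difference had the same sign in 3 of 3 sheep, with linseed on the left and control on the right of each panel and a line joining the libraries of a sheep. The first 5 panels show genes with higher and the other 7 genes with lower levels under linseed, and only IL17RC, IL6ST and CXCL11 have groups that do not overlap.

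The interleukin 1 family comprises the inflammatory ligands IL1A, IL1B and IL18 and the antagonist IL1RN, which occupies the interleukin 1 receptor without signalling. IL1B had 23.8, 26.9 and 182 RPKM in linseed sheep 1, 2 and 3 and 2.48, 57.8 and 316 RPKM in control sheep 1, 2 and 3. IL1A had 5.71, 3.71 and 20.2 RPKM with linseed and 0.934, 11.5 and 38.7 RPKM in control. Both genes were highest in the 2 libraries of sheep 3, higher with linseed in sheep 1 and lower in sheep 2 and 3. The fitted log2 change of IL1B was 0.32 ± 1.38 and turned to -1.45 without control sheep 1.

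IL18, which induces interferon gamma in T and NK cells, had 1.84, 6.73 and 3.71 RPKM with linseed and 6.19, 18.9 and 4.28 RPKM in control. These values are of its transcript of highest mean level, which was lower with linseed in each sheep, by little in sheep 3, and the groups overlapped. The log2 change was -0.96 ± 0.69 (limma adjusted p = 0.494, and 0.244 with the block), and without control sheep 2, its highest library, it was -0.39. The second IL18 transcript, XM_012095263.2, had 2.98, 3.88 and 1.55 RPKM with linseed and 6.28, 3.47 and 5.42 RPKM in control. It held most of the IL18 reads in every library but control sheep 2, and it was not lower with linseed in sheep 2. With the transcripts summed, the log2 change of IL18 was -0.996.

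Among the receptors of this family, IL1RAP, the accessory chain required for signalling by interleukin 1, had 2.01, 2.14 and 10.4 RPKM with linseed and 15.7, 6.85 and 49.4 RPKM in control. It was lower with linseed in each sheep, and the groups overlapped through linseed sheep 3, which exceeded control sheep 2. Limma gave a log2 change of -1.98 ± 0.81 (adjusted p = 0.293), and the adjusted p of 0.0543 with the block was the smallest of the 39 genes in that fit. Without control sheep 3 the change was -1.27.

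IL1R2, a decoy receptor that binds interleukin 1 without signalling, differed more among the sheep than between the diets, with 0.733, 2.95 and 26 RPKM under linseed and 0.660, 3.86 and 22.7 RPKM in control. The signalling receptor IL1R1 had 0, 0 and 65 reads with linseed and 68, 11 and 57 reads in control, and its mean was below 1 RPKM. IL18R1, the receptor of IL18, had 0.262, 0.145 and 0.608 RPKM with linseed and 0.0382, 0.147 and 15.4 RPKM in control. It stood out in control sheep 3 alone, which also had the highest T and NK cell marker sum, 965 RPKM. The part of the cell types in these levels was not tested.

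IL1RN had 3 transcripts in the table, all of them tested, and they did not keep the same proportions. The transcript of highest mean level, NM_001308595.1 (1228 nt), had 42.7, 88.7 and 221 RPKM in linseed sheep 1, 2 and 3 and 6.26, 135 and 364 RPKM in control sheep 1, 2 and 3. Its groups overlapped, and its log2 change was 0.42 ± 1.23, or -1.22 without control sheep 1. The second, XM_012169964.2 (2100 nt), had 119, 184 and 118 RPKM with linseed and 2.23, 76.2 and 41.6 RPKM in control. Every linseed library was above every control library, and the log2 change was 2.65 ± 1.01 (limma adjusted p = 0.285, and 0.0601 with the block). Without control sheep 1 it was 1.27. This transcript was singled out after its values were seen.

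The second transcript took 73.3%, 62.5% and 32.4% of the IL1RN reads in linseed sheep 1, 2 and 3, against 27.7%, 38.9% and 11.2% in control sheep 1, 2 and 3. Its share was higher with linseed in each sheep and averaged 56.1% ± 21.2 with linseed and 25.9% ± 13.9 in control (SD, n = 3 each), but the groups overlapped through linseed sheep 3. An exact two-sided permutation test of the difference of 30.2 percentage points gave p = 0.2, where 0.1 is the smallest p that 3 against 3 can give, and flipping the signs within sheep gave the smallest p it can, 0.25. How the authors divided reads among transcripts that share exons is not given in the sources used here, and it bears directly on these shares. Summed over its transcripts, IL1RN stood at 7.47, 12 and 2.40 times the level of IL1B in linseed sheep 1, 2 and 3 and at 4.15, 4.25 and 1.59 times in control sheep 1, 2 and 3. The ratio of antagonist to IL1B was thus higher with linseed within each sheep, while the groups overlapped. This rests on the sum, which includes the transcript singled out above. With NM_001308595.1 alone the ratio in sheep 1 was lower with linseed. There it had 42.7 RPKM beside 23.8 of IL1B with linseed, and 6.26 beside 2.48 in control.

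**Figure D4:**
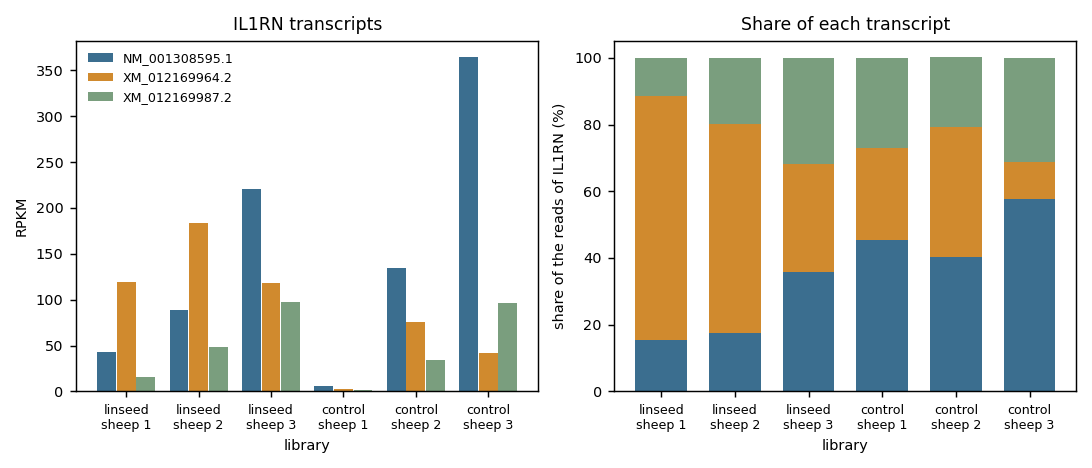
RPKM of the 3 IL1RN transcripts (left) and the share of the IL1RN reads each takes, in percent (right), in the 3 linseed and the 3 control libraries. The share of XM_012169964.2 is 73.3%, 62.5% and 32.4% with linseed and 27.7%, 38.9% and 11.2% in control.

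Interleukin 10 restrains macrophages and dendritic cells through a receptor of IL10RA and IL10RB, and IL10RB also serves interleukin 22 and lambda interferons. IL10RB had 21.0, 33.1 and 97.6 RPKM in linseed sheep 1, 2 and 3 and 8.67, 24.0 and 78.4 RPKM in control sheep 1, 2 and 3. It was higher with linseed in each sheep, while both libraries of sheep 3 stood above all others. Its log2 change of 0.65 ± 0.85 (limma adjusted p = 0.720) turned to -0.09 without control sheep 1. IL10RA had 3.70, 6.02 and 31.6 RPKM with linseed and 1.76, 8.58 and 41.8 RPKM in control. IL10 itself had 1.89, 2.21 and 13.7 RPKM with linseed and 0.481, 2.47 and 5.43 RPKM in control. Both genes were highest within each group in sheep 3, and their groups overlapped. IL22RA2, a soluble receptor that binds interleukin 22, stayed between 0.219 and 2.09 RPKM with linseed and between 0.151 and 3.08 RPKM in control.

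IL17RC, which forms the interleukin 17 receptor with IL17RA and is known mainly from epithelial cells, was the single gene of the 39 with higher levels in every linseed library than in any control library. It had 13.6, 12 and 6.70 RPKM with linseed and 6.57, 4.34 and 1.65 RPKM in control, or 10.8 ± 3.62 and 4.19 ± 2.46 RPKM (SD, n = 3 each). The gap between the groups was small, 6.70 against 6.57 RPKM, and sheep 3 had the lowest level within both groups. The log2 change was 1.26 ± 0.63 (limma adjusted p = 0.353, and 0.132 with the block), with 0.95, 1.28 and 1.54 within the sheep. It was 0.84 without control sheep 3 and 0.73 with the milk proteins left out of the total. The epithelial markers did not move as one beside it: CSN2, CSN3, EPCAM and ELF5 were lower with linseed in 3 of 3 sheep, whereas KRT8 and LALBA were higher in sheep 1 and 2. Their part in the IL17RC levels was not tested. Its ligand IL17A had no read in any library, and IL17F had none with linseed and 1, 2 and 3 reads in control.

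Among the chemokine receptors, CXCR4, which retains and recruits leukocytes of most kinds towards CXCL12, was the most abundant. It had 37.2, 53.0 and 481 RPKM in linseed sheep 1, 2 and 3 and 20.5, 265 and 1077 RPKM in control sheep 1, 2 and 3. It was highest within each group in sheep 3, and the groups overlapped. The log2 change was -0.88 ± 1.32 (limma adjusted p = 0.762), and it was 0.40 without control sheep 3 and -2.43 without control sheep 1. CXCL12 had 1 read in all, in linseed sheep 2, so the ligand was not detected above the floor of 3 reads in these cells.

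CXCL16 is a chemokine of macrophages and epithelium that is held at the membrane, and CXCR6 is its receptor on T and NK cells. CXCL16 had 23.0, 51.0 and 150 RPKM with linseed and 15.5, 59.0 and 34.3 RPKM in control. Linseed sheep 3 was the one library far above the rest, and without it the log2 change of 0.81 ± 0.79 came to 0.11. CXCR6 had 23.5, 5.64 and 35.9 RPKM with linseed and 1.42, 8.61 and 136 RPKM in control, with a log2 change of 0.30 ± 1.24 (limma adjusted p = 0.921), or -0.999 without control sheep 1. Ligand and receptor were thus highest in different libraries.

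CXCL1 attracts neutrophils through CXCR2. CXCL1 had 43.1, 49.0 and 16.9 RPKM with linseed and 33.7, 58.1 and 129 RPKM in control. Its levels lay close together in sheep 1 and 2, while sheep 3 had the lowest linseed and the highest control level, and the log2 change of -0.92 ± 0.70 became 0.05 without both libraries of sheep 3. CXCL1 has close paralogs, so its level depends on how the authors assigned reads that fit several genes. CXCR2 had 4.03, 9.78 and 9.24 RPKM with linseed and 0.0977, 4.99 and 7.99 RPKM in control. It was higher with linseed in each sheep, the groups overlapped, and the log2 change was 1.08 ± 0.80 (limma adjusted p = 0.510, and 0.213 with the block), or 0.16 without control sheep 1. The second CXCR2 transcript, XM_012145933.2, had 5.24, 4.87 and 2.03 RPKM with linseed and 0.0571, 0.771 and 5.31 RPKM in control, and with the transcripts of each gene summed the genes higher in 3 of 3 sheep numbered 4 in place of 5. The neutrophil marker sum was also higher with linseed in each sheep, at 2349 to 3184 RPKM against 422 to 1018 RPKM, and its part in the CXCR2 levels was not tested.

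CXCL9, CXCL10 and CXCL11 are induced by interferon gamma, lie next to each other in the reference annotation and act on CXCR3, a receptor of activated T and NK cells. CXCL9 had 1.86, 13.6 and 6.87 RPKM with linseed and 0.407, 41.5 and 0.580 RPKM in control. CXCL10 had 0.346, 0.286 and 3.39 RPKM with linseed and 0.415, 5.14 and 3.06 RPKM in control. CXCL11 had 0, 0.348 and 0.418 RPKM with linseed and 0.643, 14.7 and 0.589 RPKM in control.

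All 3 ligands were highest in control sheep 2. For CXCL11 every linseed library was below every control library, with 0, 2 and 8 reads under linseed and 14, 124 and 6 reads in control, and a count of 0 in linseed sheep 1 allows up to 0.632 RPKM. That is above the level of control sheep 3, so at this depth the separation of the groups is not firm. The log2 change of CXCL11 was -1.47 ± 0.80 (limma adjusted p = 0.380, and 0.137 with the block), and it was -0.38 without control sheep 2. CXCR3 did not share that maximum: it had 5.75, 4.21 and 4.87 RPKM with linseed and 0.114, 2.57 and 18.5 RPKM in control, with its highest level in control sheep 3.

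CCL28, a mucosal chemokine of mammary epithelium that draws plasma cells making immunoglobulin A, had 0.911, 3.77 and 0 RPKM with linseed and 3.28, 10.5 and 7.22 RPKM in control. It was lower with linseed in each sheep, and the groups overlapped between linseed sheep 2 and control sheep 1. The counts were low, with 2, 10 and 0 reads with linseed and 33, 41 and 34 reads in control, and a count of 0 in linseed sheep 3 allows up to 0.339 RPKM. The log2 change was -1.82 ± 0.70 (limma adjusted p = 0.285, and 0.0642 with the block), and it was -1.29 without linseed sheep 3. Of the 6 epithelial markers 4 were lower with linseed in each sheep too, while KRT8, at 355, 500 and 21.3 RPKM with linseed and 17.6, 98.6 and 54.5 RPKM in control, and LALBA were higher in 2 of the 3, and their part in the CCL28 levels was not tested. The receptors of CCL28 were hardly detected: CCR10 had 0, 3 and 2 reads with linseed and none in control, and CCR3 stayed at or below 0.812 RPKM in every library.

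CCR7, which guides dendritic cells and naive T cells, had its highest level within each group in sheep 2, at 6.36, 27.3 and 11.7 RPKM with linseed and 0.252, 37.4 and 4.25 RPKM in control. Its ligand CCL21 had no read in any library and CCL19 had 0, 1 and 1 reads with linseed and none in control. CCR8, a receptor of regulatory T cells, had 3, 0 and 8 reads with linseed and 0, 54 and 64 reads in control, so that it was seen mainly in control sheep 2 and 3. Its ligand CCL1 had 6, 0 and 0 reads with linseed and 0, 9 and 1 reads in control.

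The other 4 tested chemokines were CCL22, CCL25, CCL26 and CXCL14. CCL22, which macrophages and dendritic cells make, had 1.25 to 13.7 RPKM with linseed and 0.410 to 15.0 RPKM in control. CCL26, an eotaxin, ranged from 0.430 to 17.1 RPKM with linseed and from 0.943 to 9.53 RPKM in control, with its highest level in sheep 1 on both diets. CCL25 and CXCL14 stayed below 4 RPKM in every library. The remaining receptor genes that were tested, IL12RB1 of the interleukin 12 receptor and IL1RL2 of the interleukin 36 receptor, had 0.632 to 1.94 and 0.955 to 1.59 RPKM with linseed and 0.0556 to 7.17 and 0.448 to 2.39 RPKM in control. None of these genes differed by diet in the same direction in 3 of 3 sheep.

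**Figure D5:**
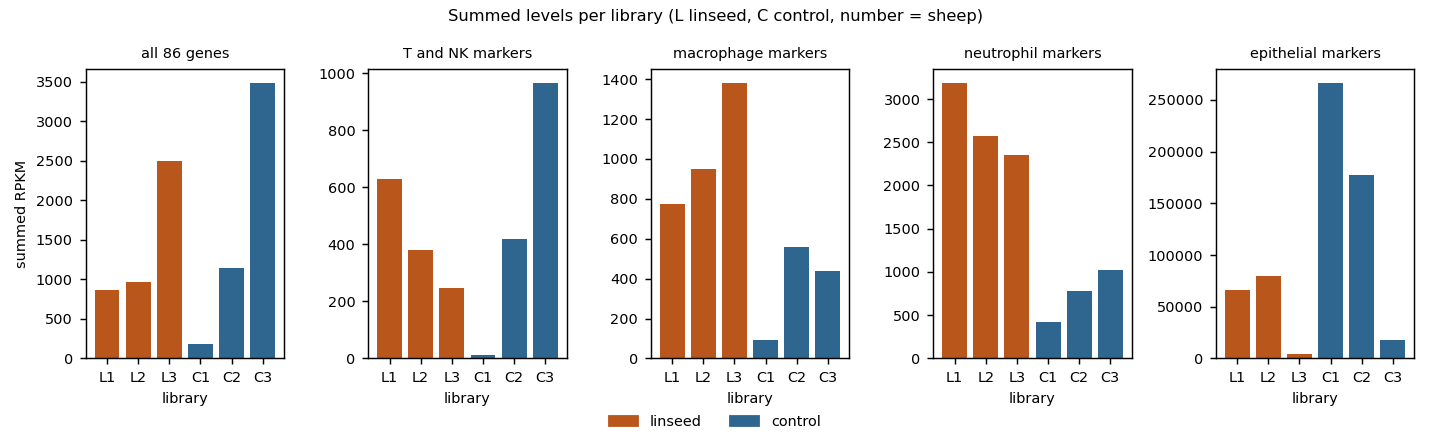
Summed RPKM of the 86 genes and of 4 lists of cell type markers in the 3 linseed (L) and the 3 control (C) libraries, where the number is the sheep. The sum over the 86 genes runs from 183 RPKM in control sheep 1 to 3486 RPKM in control sheep 3, and the T and NK cell marker sum has its extremes, 13.4 and 965 RPKM, in the same 2 libraries.

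The 47 genes below a mean of 1 RPKM were detected in traces: 9 had no read in any library, and the other 38 had between them a median of 12 reads, summed over libraries, and at most 206. The highest single level among the 47 was 2.92 RPKM, of IL12RB2 in control sheep 3. The 9 without a read were IL2, IL3, IL17A, IL20, IL21, IL25, IL26, CCL21 and IL13RA2. Of these, IL2, IL17A and IL21 are products of activated T cells. A further 34 symbols of the reference that fit the naming rule, CCL5, IL6R and IL4R among them, matched no transcript of the table and are not analysed here.

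Genes through which these receptors signal gave the same picture without the block: limma called 0 genes in each of 4 lists. Their counts with the same sign in 3 of 3 sheep stand beside 23% of all transcripts higher and 26.2% lower. Counts of genes whose groups did not overlap stand beside 13.3% higher and 7.83% lower. Genes called with the block stand beside 1.28% of all transcripts called higher and 1.34% called lower. Of 16 JAK, STAT and inhibitor genes, 2 were higher and 7 lower with linseed in 3 of 3 sheep, with 0 called in either fit. The groups of 2 of them, STAT5A and SOCS4, did not overlap, with lower levels under linseed. SOCS4 reached the filter through the control group, with a mean of 0.943 RPKM with linseed and 4.84 RPKM in control. JAK2, a kinase that gp130 binds, had 0.918, 1.72 and 3.87 RPKM with linseed and 7.07, 3.04 and 15.7 RPKM in control. PTPN6, a phosphatase that dampens cytokine signals and 1 of the 2 that were higher, had 26.9, 64.6 and 210 RPKM with linseed and 7.59, 50.3 and 120 RPKM in control.

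Of 16 adaptors of interleukin 1 and Toll-like receptors, 2 were higher and 5 lower in 3 of 3 sheep. TAB2, which links TRAF6 to the kinase TAK1 downstream of IL1RAP, had 1.68, 2.36 and 17.9 RPKM with linseed and 20.3, 10.0 and 71.7 RPKM in control. It was the 1 gene of that list called by limma with the sheep as a block, where it fell by 2.22 on the log2 scale (adjusted p = 0.0461, and 0.292 without the block). The TAB2 transcript is 4332 nt long, and over all transcripts above 4000 nt the median log2 change was -0.49. The adaptor MYD88 had 5.00, 10.3 and 46.4 RPKM with linseed and 10.5, 11.7 and 87.4 RPKM in control and was not called. RELB, an NF-kappa-B subunit, had 26.2, 27.4 and 26 RPKM with linseed and 9.03, 10.3 and 19.1 RPKM in control, so its groups did not overlap (limma adjusted p = 0.382). It was the 1 gene of that list with such a separation.

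Of 11 genes for chemokine receptor coupling and atypical receptors, 1 was higher and 3 lower in 3 of 3 sheep, with 0 called in either fit. RGS2, which shortens signals of G protein-coupled receptors, had 45.2, 73.8 and 332 RPKM with linseed and 378, 206 and 537 RPKM in control. Of 13 other cytokine genes, 2 were higher and 4 lower in 3 of 3 sheep, and 1 was called by limma with the block. This was CXCL8, the neutrophil attractant that the naming rule leaves out, with 39.1, 48.0 and 474 RPKM under linseed and 246, 411 and 2263 RPKM in control (adjusted p = 0.289 without the block and 0.0441 with it). EBI3, the subunit that pairs with IL27, had 2.71, 1.36 and 5.58 RPKM with linseed and 0.0846, 1.31 and 0.361 RPKM in control. Every linseed library was thus above every control library (limma adjusted p = 0.297). That separation is not firm, since in sheep 2 the levels of 1.36 and 1.31 RPKM rest on 17 and 24 reads. For OSMR every linseed library was below every control library (limma adjusted p = 0.329). It had 0.0894, 0.702 and 0.0444 RPKM with linseed and 4, 0.802 and 1.23 RPKM in control. In sheep 2 its levels rest on 19 reads with linseed and 32 in control, so this separation is not firm either. EBI3 reached the filter through linseed (means of 3.22 and 0.584 RPKM with linseed and in control) and OSMR through control (0.278 and 2.01 RPKM).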

How the data were processed

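RNA of milk somatic cells was read on a HiSeq2000 after TruSeq library preparation, in 3 linseed and 3 control libraries, per the labels. Diet was taken from the letter in the sample titles, read with the series design, and the sheep from the animal identifiers, which pair the libraries. The authors deposited 1 table of RPKM values for RefSeq transcripts (with decimal commas), made from reads that went through Trimmomatic 0.33, per the submitters' processing notes. What aligned and counted them, and on which build, is not given in the sources used here. For symbols and gene order alone, RefSeq's genes of ARS-UI_Ramb_v3.0 were used: 15836 of 49705 transcripts (31.9%) matched, versions ignored. Whole reads, transcript lengths and library totals were solved from the RPKM steps (tolerance 0.002 reads), and the recovered reads summed to 99.43% to 99.82% of the totals.

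The 15891 transcripts whose mean reached 1 RPKM were compared as log2(RPKM + 1) with limma 3.58.1 in R 4.3.3 (mean-variance trend, Benjamini-Hochberg adjustment over all of them), and an adjusted p under 0.05 was called. On this scale the change of low genes is understated. The steps were tested on simulated data. The main fit had no block. The sheep as a block was an alternative; deviations of paired libraries correlated at 0.18, 0.25 and 0.40, though control sheep 1 correlated more with linseed sheep 2 (0.24). Without the block the limma p-values measure the spread between 3 ewes on each diet and ignore the pairing. With the block they measure the spread of the differences within the 3 ewes. A count of 0 was taken to allow up to 3 reads, which covers counting error alone.

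Values in every library are given for the genes with the same sign in 3 of 3 sheep (up to 8 a direction by p), the 12 of highest mean RPKM, and their ligands or receptors; other genes are given by range, or in full where a partner or a family needed it. A few genes that were measured are not reported here. The members, gene lists and length correction were chosen with earlier results of these data known.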

Additional observations from a re-analysis of the deposited data

How the results depend on the processing

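Limma called 0 of the chemokine, interleukin and receptor genes under every setting tried: another pseudocount (0.1), no filter or a mean of at least 5 RPKM, quantile or median-of-ratios scaling, milk proteins left out of the total, transcripts summed per gene, voom on the recovered reads, each library or each sheep left out, the sheep as a block and a length correction added with results known. With the replicate block, which rests on the pairing by animal, limma called 416 transcripts in all, 2 signalling genes (TAB2 and CXCL8) and 1 cell type marker (TREM2), against 0 in each case without it; the block changed no call among the chemokine, interleukin and receptor genes. Of 375 values of single genes under these settings, 355 kept their direction and side of the threshold and 20 turned their sign, none of them called in any setting. Over all settings the adjusted p ran from 0.0624 to 0.917 for IL6ST, from 0.0543 to 0.917 for IL1RAP and from 0.0642 to 0.917 for CCL28, lowest with the block and highest without both libraries of sheep 1. Leaving out the milk proteins moved the median log2 change of all transcripts to -0.52, against -0.12 before, and that of the 39 genes to -0.34. The genes higher with linseed in 3 of 3 sheep then numbered 2 and those lower 14. The same counts over all transcripts were not taken under this setting, so these 2 counts say nothing particular to the 39 genes. IL1RN (-0.149), IL1B (-0.217) and CXCR6 (-0.188) turned negative, and relative to the median of all transcripts these 3 remained above it. With the length correction 11 genes were lower in 3 of 3 sheep, and the share of all transcripts after that correction was not counted. IL1B came to -0.124. The drop of IL7R shrank to -1.624, as those of IL6ST and IL15RA did. The drops of the shorter transcripts of CCL28, IL18, CXCL1 and CXCL11 grew, to -2.511, -1.502, -1.643 and -1.924. Leaving out libraries moved the log2 change of IL1RN between -1.224 and 1.602, of IL1B between -1.446 and 1.809, of CXCR6 between -1.214 and 1.912, of IL21R between -0.587 and 2.202, of IL10RB between -0.086 and 1.433, of CXCR4 between -2.425 and 0.398, of CXCL1 between -1.549 and 0.052 and of IL15RA between -0.927 and 0.052. The sign turned without control sheep 1 for IL1RN, IL1B, CXCR6, IL21R and IL10RB, without linseed sheep 3 for IL1RN, IL1B and CXCR6, without control sheep 2 for CXCR6, and without control sheep 3 for CXCR4 and IL15RA. It turned without both libraries of sheep 1 for IL1RN, IL1B, CXCR6 and IL21R and of sheep 3 for CXCL1. The causes were not tested. In the shallowest library, 1 read of a transcript of 2000 nt was worth 0.101 RPKM, which limits the genes below 1 RPKM.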
